A study of Homo sapiens with 4 samples.

Results

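The genes described here are MYC and 45 genes whose products build ribosomes in the nucleolus, 46 genes in all out of 63856 in the count table. The list was given by gene symbol and uses no measured value, but it was chosen with earlier results of these data known. No count over it is therefore independent evidence. Every member was found in the table, and all 46 passed the filter on low counts that left 15830 genes for testing. FBL passed it only through its HSF1-pLVX libraries, so it could only be called higher. The members were grouped by what their products do: 1 regulator, 2 abundant nucleolar proteins, 8 factors of RNA polymerase I transcription, 7 proteins of small nucleolar ribonucleoproteins (snoRNPs), 12 proteins of the small subunit processome, 5 late factors of the small subunit and 11 factors of the large subunit.

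The libraries were made from MCF10A, a line of human mammary epithelium that forms no tumors and grows in medium with horse serum, insulin, hydrocortisone, EGF and cholera toxin. Libraries of 2 biological replicates each came from wild type (WT) cells and from cells that overexpress HSF1, the transcription factor of the heat shock response. The overexpressing cells, named HSF1-pLVX, carry the HSF1 coding sequence in the lentiviral vector pLVX-Puro and were selected with puromycin, whereas WT cells were neither transduced nor selected. Vector and selection therefore cannot be told apart from HSF1 itself, and none of the libraries of the series came from cells with the empty vector. How the replicates were cultured is not stated, so p-values measure the spread between these samples only.

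Ribosomes are made in the nucleolus. RNA polymerase I transcribes the precursor of the ribosomal RNAs, snoRNPs modify it and guide its cleavage, and large sets of assembly factors fold and trim the pre-subunits before export. MYC is a transcription factor that binds E-boxes as a dimer with MAX, and genes of ribosome biogenesis are among its best-known targets. The libraries were depleted of ribosomal RNA, so the values below are those of the mRNAs of these factors, not of ribosomal RNA or ribosomes.

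HSF1 itself was measured at 200.1 and 188.9 CPM (counts scaled to a common library size after TMM normalization) in WT cells and at 980.8 and 997.0 CPM in HSF1-pLVX cells. Both libraries labelled as overexpressing were above both WT libraries, and the log2 fold change was 2.35 ± 0.10 (SE). Library totals ran from 18688109 to 24184285 counts. Among 9 markers of mammary epithelium, all were detected, with KRT5, TP63 and ITGA6 higher and 6 others lower in HSF1-pLVX cells, and the summed level was 15219 to 15251 CPM in WT and 7174 to 7653 CPM in HSF1-pLVX libraries. The 8 fibroblast markers summed to 7.87 to 10.85 CPM in WT and 13.92 to 14.99 CPM in HSF1-pLVX cells, with COL1A1 at 7.18 to 10.7 CPM and LUM, COL1A2 and COL3A1 at or near 0 in every library. DCN had 1 and 3 counts in WT and 94 and 87 counts in HSF1-pLVX libraries and was called higher. PDGFRB had 2 and 0 counts in WT and 10 and 5 in HSF1-pLVX libraries. PDGFRA went the other way, with 6 and 4 counts in WT and 1 and 1 in HSF1-pLVX libraries. THY1 had at most 2 counts in any library. PDGFRB, PDGFRA and THY1 had too few counts to be tested. The part of the fibroblast markers in the results below was not tested. The 3 endothelial markers summed to at most 1.41 CPM and the 4 immune markers to at most 0.48 CPM, with PTPRC at 0.

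Most genes of ribosome biogenesis on the list were expressed more strongly in HSF1-pLVX than in WT cells, MYC among those with the largest changes. By the quasi-likelihood test of edgeR, with p-values adjusted by Benjamini-Hochberg over all 15830 genes, 36 of the 46 members were called higher at an adjusted p of 0.05, against 32.7% of all genes tested. Only 2 members, RRN3 and BYSL, were called lower, against 33.2% of all genes tested, and 8 were not called. A change of more than 2-fold upwards was called for 10 members (MYC, NCL, NPM1, POLR1E, TAF1D, FBL, NOP56, NOLC1, DKC1 and NOB1), against 14.9% of all genes tested. FBL entered the test only through its HSF1-pLVX libraries, and without FBL and RRN3 the count was 9. No member was called more than 2-fold lower, against 14.0% of all genes tested. The median log2 fold change of the members was 0.62 (0.62 also without MYC), and that of all genes tested was 0.02. The shares of all genes tested given here also apply to the counts by role below.

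Levels in the single libraries showed the same order. For 39 members both HSF1-pLVX libraries lay above both WT libraries in CPM, which was the case for 42.1% of all genes tested. For 4 members both HSF1-pLVX libraries lay below both WT libraries, which was the case for 41.0% of all genes tested, and for 3 (NOL6, UTP3 and UTP15) the groups overlapped. The levels of the members summed to 3194 and 3012 CPM in WT cells and to 6103 and 6443 CPM in HSF1-pLVX cells. NPM1 and NCL made up a large share of these sums, and without them the other 44 members summed to 2090.5 and 1999.1 CPM in WT and to 3533.9 and 3655.7 CPM in HSF1-pLVX cells. In RNA of a whole culture, a larger share of cells with a high level cannot be told apart from more RNA per cell.

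Markers of proliferating cells moved with the members. All 11 markers tested (among them MKI67, TOP2A, PCNA and MCM2) were called more than 2-fold higher in HSF1-pLVX cells, with a median log2 fold change of 1.84. Their summed level was 319.9 and 256.1 CPM in WT and 1080 and 951.7 CPM in HSF1-pLVX libraries. In the study, crystal violet staining showed no effect of stable HSF1 overexpression on the growth of MCF10A cells. How the marker levels relate to that measurement was not tested. The part of these markers in the levels of the ribosome biogenesis genes was not tested either.

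**Figure D1:**
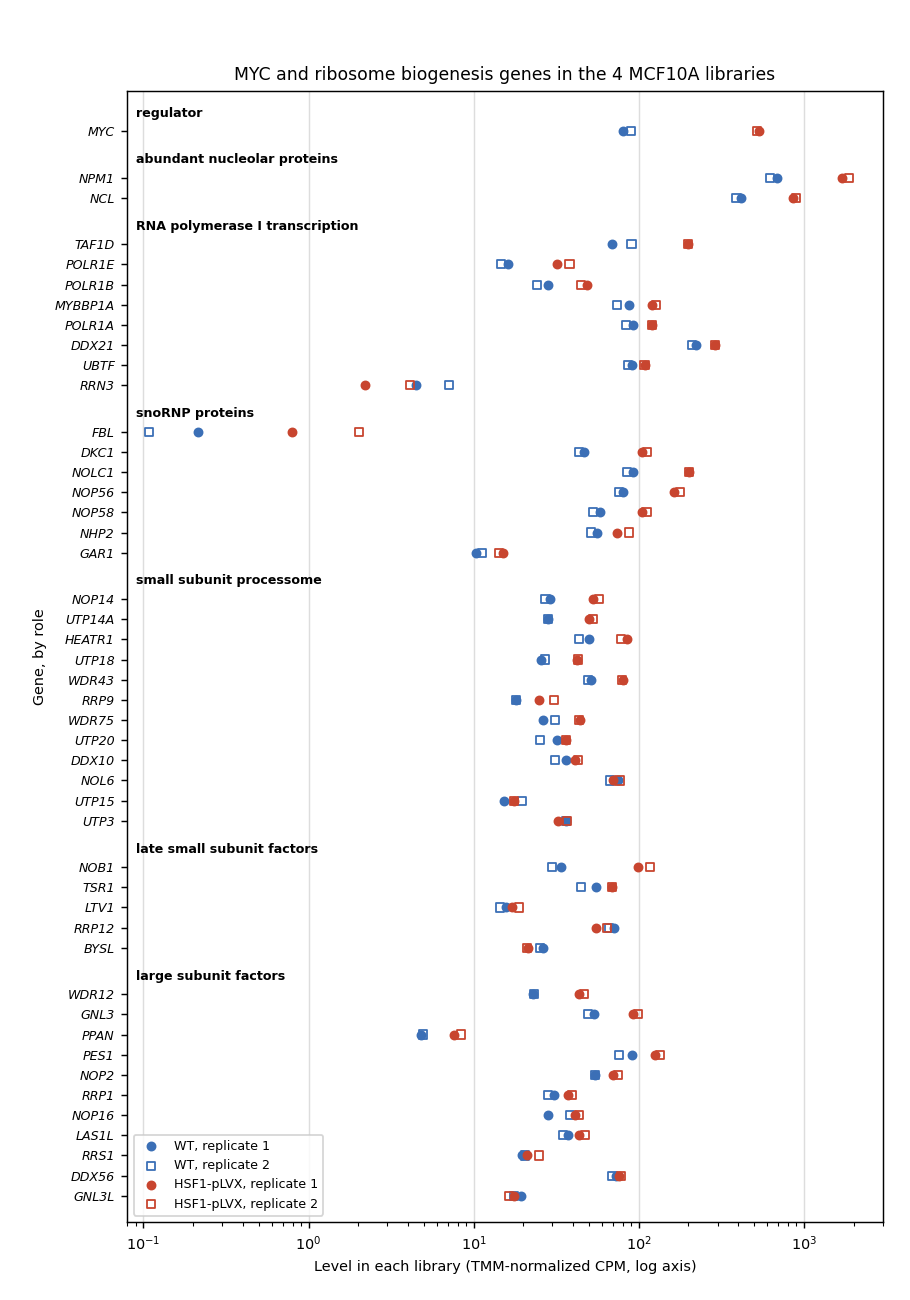
Level of each of the 46 members in the 4 libraries (TMM-normalized CPM on a log axis), by role, with WT libraries in blue and HSF1-pLVX libraries in red, circles for replicate 1 and squares for replicate 2. The red points lie to the right of the blue points for 39 members, and FBL and RRN3 stand at the low end of the axis.

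MYC, the regulator on the list, lies at chr8:127735434-127741434 (hg38, plus strand). It was measured at 80.4 and 89.7 CPM in WT replicates 1 and 2, and at 534.9 and 522.7 CPM in HSF1-pLVX replicates 1 and 2. The HSF1-pLVX libraries were close to each other and far above both WT libraries. The fitted difference was 6.22-fold, a log2 fold change of 2.64 ± 0.10 (SE), with an adjusted p of 4.26e-11 in edgeR's quasi-likelihood test. This was the 317th largest of the 5175 fold changes called higher among all genes. An exact permutation test of 2 against 2 libraries has a smallest possible two-sided p of 0.333 for any gene, and the adjusted p rests on the spread that edgeR shares across genes.

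Per annotated exonic length of the gene (TPM), the level of MYC was 88.8 in WT cells. NPM1 (534), NCL (182), DDX21 (135) and NHP2 (111) were above MYC there. In HSF1-pLVX cells MYC was at 520, with only NPM1 above it (1382), and with NCL at 375, DDX21 at 171 and NHP2 at 157. This order depends on the exonic lengths, which were 6929 bases for NCL and 3001 for MYC. In CPM, NCL was above MYC in HSF1-pLVX replicates 1 and 2, at 861.5 and 901.2 against 534.9 and 522.7. In TPM, the HSF1-pLVX libraries of MYC at 547.4 and 493.0 did not overlap those of NCL, of which the higher stood at 381.8. The next 3 genes in HSF1-pLVX cells were close to each other, with DDX21 at 178.1 and 163.4 TPM, NHP2 at 150.3 and 162.8 TPM and NOB1 at 142.6 and 157.1 TPM, and the libraries of NHP2 and NOB1 overlapped. FBL and RRN3 had the lowest levels of the list in both variants, at 0.228 and 4.38 TPM in WT cells.

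Both abundant nucleolar proteins were higher in HSF1-pLVX cells. NPM1 (nucleophosmin, a chaperone of ribosome assembly and the main protein of the granular nucleolus) was measured at 685.7 and 621.7 CPM in WT and at 1707 and 1887 CPM in HSF1-pLVX cells. The log2 fold change of NPM1 was 1.46 ± 0.11 (SE), with an adjusted p of 3.21e-08. NCL (nucleolin, which binds the ribosomal RNA precursor) was measured at 417.6 and 390.8 CPM in WT and at 861.5 and 901.2 CPM in HSF1-pLVX cells, a log2 fold change of 1.12 ± 0.10 (SE) and an adjusted p of 1.58e-07. In both genes the gap between the variants was several times the gap between replicates.

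Of the 8 factors of RNA polymerase I transcription, 7 were called higher and 1 lower, with a median log2 fold change of 0.54. TAF1D, a subunit of the promoter selectivity factor SL1, was measured at 68.4 and 90.4 CPM in WT and at 199.7 and 197.8 CPM in HSF1-pLVX cells (log2 fold change 1.32 ± 0.11 SE, adjusted p = 1.49e-07). The TAF1D transcript shares 17.3% of its exonic length with other genes, among them small nucleolar RNAs. POLR1E, a subunit of the polymerase, was measured at 16.1 and 14.7 CPM in WT and at 31.8 and 38.0 CPM in HSF1-pLVX cells (log2 fold change 1.18 ± 0.11 SE, adjusted p = 4.64e-07). In TAF1D and POLR1E all HSF1-pLVX values were well above the WT values, although the WT replicates of TAF1D differed more from each other than those of most members.

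The catalytic core changed less. POLR1B and POLR1A, the core subunits of the polymerase, had log2 fold changes of 0.84 and 0.45, and MYBBP1A, a nucleolar MYB-binding protein, had 0.62. DDX21, a nucleolar RNA helicase, was higher by a log2 fold change of 0.43. UBTF, the factor that holds ribosomal DNA in its open form, was measured at 90.9 and 86.1 CPM in WT and at 109.5 and 108.2 CPM in HSF1-pLVX cells, a log2 fold change of 0.30 ± 0.08 (SE) with an adjusted p of 0.00585. The call of UBTF was lost without HSF1-pLVX replicate 2 (adjusted p = 0.0593 with edgeR, with a range of 0.000903 to 0.0593 over its alternatives).

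RRN3, the initiation factor that brings RNA polymerase I to its promoter, was called lower. Its level was 4.47 and 7.09 CPM in WT and 2.19 and 4.12 CPM in HSF1-pLVX cells, a log2 fold change of -0.90 ± 0.29 (SE) with an adjusted p of 0.0128. The groups lay close to each other, with the higher HSF1-pLVX library just below the lower WT library. The call was lost without WT replicate 2 (log2 fold change -0.53, adjusted p = 0.0884) and without HSF1-pLVX replicate 1 (-0.49, adjusted p = 0.145), with a range of adjusted p of 8.48e-06 to 0.145 over its alternatives. Without HSF1-pLVX replicate 2 the log2 fold change was -1.39, past 2-fold.

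The table lists RRN3 and FBL a further time on an alternate sequence of the genome build, each with the same exonic length and number of exons. Of 441 protein-coding genes that are listed again in this way, 4.5% had at least 50 counts in every library, whereas 57.1% of the 17565 other protein-coding genes did. How the counting treated reads that map to several places is not given in the sources used here, and the values of RRN3 and FBL are uncertain. Without them, 35 of 44 members were called higher and 1 lower, with a median log2 fold change of 0.62.

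The 7 snoRNP proteins were all called higher, with a median log2 fold change of 1.13. DKC1 (dyskerin, the pseudouridine synthase of H/ACA snoRNPs) was measured at 46.5 and 43.6 CPM in WT and at 104.5 and 112.6 CPM in HSF1-pLVX cells, a log2 fold change of 1.27 ± 0.09 (SE) with an adjusted p of 1.34e-08. NOLC1, which chaperones snoRNPs between Cajal bodies and the nucleolus, had a log2 fold change of 1.19. NOP56 and NOP58, the core proteins of box C/D snoRNPs that guide methylation, had 1.13 and 0.96. In these genes the replicates of a variant lay close together and the variants did not overlap.

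The partners of DKC1 changed by less. NHP2 was measured at 56.2 and 51.2 CPM in WT and at 73.9 and 86.8 CPM in HSF1-pLVX cells (log2 fold change 0.58 ± 0.10 SE, adjusted p = 9.84e-05), and 27.4% of its exonic length lies opposite RMND5B on the other strand. GAR1 was measured at 10.3 and 11.2 CPM in WT and at 15.1 and 14.2 CPM in HSF1-pLVX cells (log2 fold change 0.45 ± 0.12 SE, adjusted p = 0.00519). FBL, the methyltransferase of box C/D snoRNPs, had 4 and 2 counts in WT and 20 and 40 counts in HSF1-pLVX cells. Its log2 fold change of 3.04 ± 0.60 (SE, adjusted p = 4.93e-04) fell to 2.28 without HSF1-pLVX replicate 2 and was 3.61 without WT replicate 1 and 3.60 without HSF1-pLVX replicate 1. With so few counts for a gene listed a further time, the size of the FBL change cannot be read from these libraries.

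**Figure D2:**
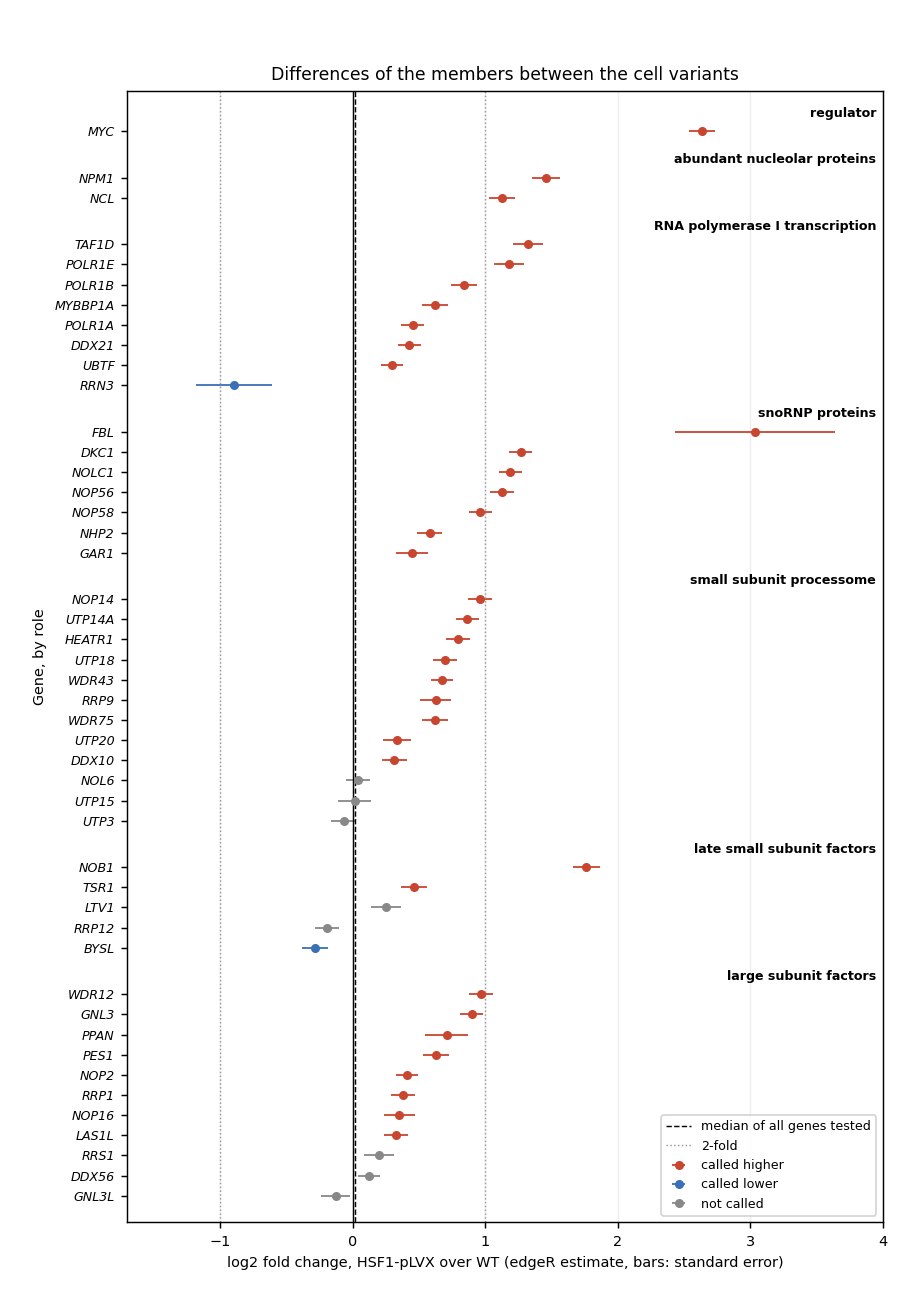
Fitted log2 fold change of HSF1-pLVX over WT cells for each member (edgeR estimate, bars for the standard error), by role, in red where called higher, blue where called lower and grey where not called. MYC at 2.64 and NOB1 at 1.76 stand apart from the other members with full counts, and the dashed line marks the median of all genes tested at 0.02.

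The small subunit processome is the particle that assembles on the ribosomal RNA precursor as it is made. Of its 12 members on the list, 9 were called higher and none lower (none in DESeq2 or limma-voom and none at an unadjusted p of 0.05), with a median log2 fold change of 0.62 and no member past 2-fold. NOP14 was measured at 29.1 and 27.2 CPM in WT and at 52.6 and 57.2 CPM in HSF1-pLVX cells (log2 fold change 0.96 ± 0.09 SE, adjusted p = 4.18e-07), with 17.1% of its exonic length opposite an antisense gene. UTP14A, which activates the helicase DHX37, was measured at 28.3 and 28.2 CPM in WT and at 49.99 and 52.9 CPM in HSF1-pLVX cells (log2 fold change 0.86 ± 0.09 SE, adjusted p = 8.70e-07). These groups were far apart next to the gaps between replicates. HEATR1, UTP18, WDR43, RRP9 and WDR75, also parts of this particle, had log2 fold changes of 0.79, 0.70, 0.67, 0.63 and 0.62.

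UTP20 and the helicase DDX10 had the smallest log2 fold changes called in this group, 0.33 and 0.31. Both calls were lost without WT replicate 2 (adjusted p = 0.199 and 0.113 with edgeR) and without HSF1-pLVX replicate 2 (0.167 and 0.14), and with DESeq2 (0.0661 and 0.0574). The adjusted p ranged from 6.91e-05 to 0.199 for UTP20 and from 5.25e-04 to 0.14 for DDX10 over their alternatives. Without WT replicate 2 the log2 fold change of UTP20 was 0.18, and without WT replicate 1 it was 0.53.

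The 3 members of the processome that were not called had overlapping groups. UTP3 was measured at 36.4 and 36.2 CPM in WT and at 32.6 and 36.9 CPM in HSF1-pLVX cells, with a log2 fold change of -0.07 ± 0.09 (SE, adjusted p = 0.554). UTP15, a subunit of the complex that joins the precursor first, was measured at 15.3 and 19.5 CPM in WT and at 17.7 and 17.5 CPM in HSF1-pLVX cells, with a log2 fold change of 0.02 ± 0.12 (SE, adjusted p = 0.918). NOL6 was measured at 74.6 and 67.3 CPM in WT and at 69.7 and 76.4 CPM in HSF1-pLVX cells, with a log2 fold change of 0.04 ± 0.09 (SE, adjusted p = 0.698). For UTP3, UTP15 and NOL6 the sign of the difference depended on which libraries were kept, with log2 fold changes of -0.15 to 0.02, -0.13 to 0.20 and -0.03 to 0.14 when each library was left out in turn.

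The 5 late factors of the small subunit did not move together. NOB1, the endonuclease that makes the last cut of the small subunit RNA, was measured at 33.6 and 29.9 CPM in WT and at 98.4 and 117.6 CPM in HSF1-pLVX cells, a 3.40-fold difference (log2 fold change 1.76 ± 0.10 SE, adjusted p = 2.69e-09). This was the largest change of the list after FBL and MYC, and 20.2% of the exonic length of NOB1 is shared with NQO1-DT on the other strand. TSR1, an assembly factor that resembles a GTPase, was measured at 54.8 and 44.9 CPM in WT and at 68.7 CPM in both HSF1-pLVX libraries (log2 fold change 0.46 ± 0.10 SE, adjusted p = 7.71e-04). Of its exonic length, 20.85% is shared with SGSM2 and SRR on the other strand. The call of TSR1 was lost without HSF1-pLVX replicate 2 (adjusted p = 0.0671, range 9.18e-08 to 0.0671 over its alternatives).

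BYSL (bystin) was called lower, at 26.4 and 25.1 CPM in WT and at 21.3 and 21.0 CPM in HSF1-pLVX cells, with a log2 fold change of -0.28 ± 0.10 (SE, adjusted p = 0.0194). The groups of BYSL did not overlap, but its call depended on the processing. It was lost without WT replicate 1 (adjusted p = 0.121), without HSF1-pLVX replicate 1 (0.0665) and without HSF1-pLVX replicate 2 (0.11), under library size scaling (0.0689), upper quartile scaling (0.0873) and in DESeq2 (0.0874), with a range of 0.0159 to 0.121 over its alternatives. RRP12, an export factor of both subunits, was measured at 70.4 and 65.8 CPM in WT and at 55.4 and 63.9 CPM in HSF1-pLVX cells (log2 fold change -0.19 ± 0.09 SE, adjusted p = 0.0788) and was not called, except without WT replicate 2 (0.0459, range 0.0459 to 0.5). LTV1 had 15.6 and 14.5 CPM in WT and 17.2 and 18.9 CPM in HSF1-pLVX cells (log2 fold change 0.25 ± 0.11 SE, adjusted p = 0.0622). LTV1 was called under library size scaling, upper quartile scaling and a stricter filter, and without WT replicate 1 (0.0424), with a range of 0.0168 to 0.25, and 34.8% of its exonic length is shared with other genes.

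Of the 11 factors of the large subunit, 8 were called higher and none lower (again none by the other tools or unadjusted), with a median log2 fold change of 0.38 and no member past 2-fold. WDR12, which forms the PeBoW complex with PES1 and BOP1, was measured at 22.8 and 23.3 CPM in WT and at 43.7 and 46.5 CPM in HSF1-pLVX cells (log2 fold change 0.97 ± 0.09 SE, adjusted p = 3.98e-07). GNL3 (nucleostemin, a nucleolar GTPase) was measured at 53.5 and 49.3 CPM in WT and at 92.8 and 98.6 CPM in HSF1-pLVX cells (log2 fold change 0.90 ± 0.09 SE, adjusted p = 4.50e-07). The WT and HSF1-pLVX libraries were clearly apart in both. PES1 had a log2 fold change of 0.63 and PPAN 0.71, though 59.8% of the exonic length of PPAN is shared with the readthrough gene PPAN-P2RY11 and with P2RY11.

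The relative of GNL3, GNL3L, went with neither call. GNL3L was measured at 19.4 and 17.6 CPM in WT and at 17.5 and 16.3 CPM in HSF1-pLVX cells, with a log2 fold change of -0.13 ± 0.11 (SE, adjusted p = 0.323). DDX56, a helicase of the large subunit, was measured at 72.4 and 69.3 CPM in WT and at 76.0 and 78.4 CPM in HSF1-pLVX cells (log2 fold change 0.12 ± 0.08 SE, adjusted p = 0.199), and was called only under upper quartile scaling (0.0357, range 0.0357 to 0.483). RRS1, which brings part of the central protuberance into the pre-subunit, had a log2 fold change of 0.20 ± 0.11 (SE, adjusted p = 0.129) and was called under upper quartile scaling (0.0362) and without HSF1-pLVX replicate 1 (0.0498), with a range of 0.0362 to 0.53.

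The other 4 members of this group had small differences that were called. The log2 fold changes were 0.41 for NOP2, an RNA methyltransferase, 0.38 for RRP1, 0.35 for NOP16 and 0.33 for LAS1L, the endonuclease that cuts in a spacer of the precursor. Without HSF1-pLVX replicate 2 the calls of RRP1 (adjusted p = 0.0578, range 4.77e-04 to 0.0578), LAS1L (0.0935, range 0.00112 to 0.0935) and NOP16 (0.231, range 5.23e-06 to 0.231) were lost. The call of NOP16 was also lost without WT replicate 1 (0.204), and its log2 fold change ran from 0.17 to 0.59 when each library was left out in turn. The WT replicates of NOP16, at 28.1 and 38.1 CPM, were the farthest apart among 44 members. NOP16 shares 19.95% of its exonic length with HIGD2A and ARL10 on the other strand. RRS1, described above, shares 11.37% with ADHFE1 on the same strand.

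The spread between replicates was small next to the difference between the variants. Over the 44 members other than FBL and RRN3, the median absolute log2 difference in CPM was 0.12 between the WT replicates and 0.09 between the HSF1-pLVX replicates. Between HSF1-pLVX and WT libraries it was 0.51 for those numbered 1 and 0.68 for those numbered 2. The HSF1-pLVX library was above the WT library for 39 of the 44 members in replicate 1 and for 40 in replicate 2. Replicate 2 also held the lower WT level for 33 members and the higher HSF1-pLVX level for 31, and 7 of the 36 calls upwards (UBTF, UTP20, DDX10, TSR1, NOP16, RRP1 and LAS1L) were lost without HSF1-pLVX replicate 2. At the same threshold, the call was the same under every alternative for the other 29 members called higher, except that the stricter filter removed FBL and gave no call for it.

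**Figure D3:**
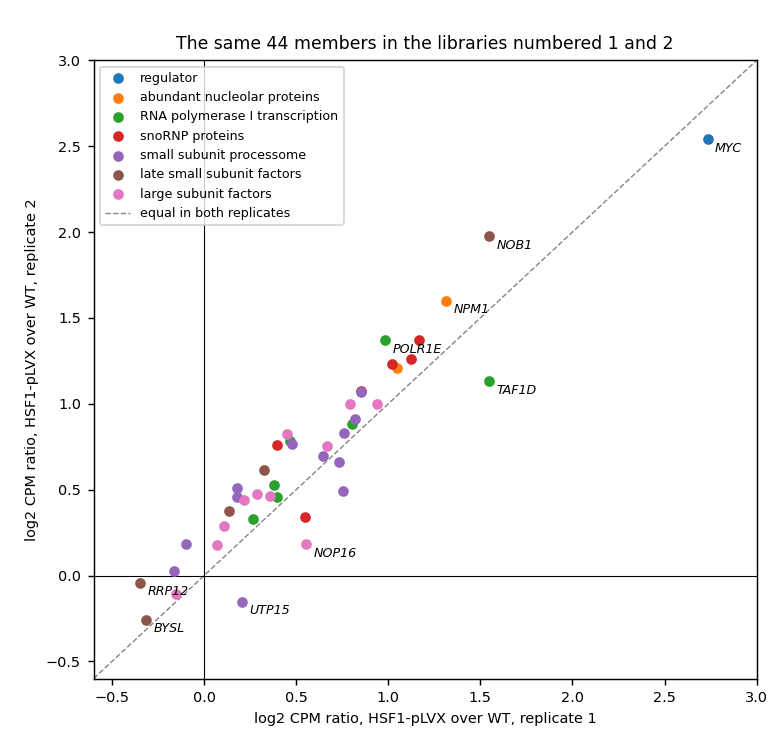
Log2 ratio of CPM between HSF1-pLVX and WT libraries of replicate 1 (horizontal axis) and of replicate 2 (vertical axis) for 44 members, colored by role, without FBL and RRN3. Most points lie above the dashed line of equal ratios, MYC is at 2.73 and 2.54, and TAF1D and NOP16 lie below the line.

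The study called a gene when its ratio exceeded 2 in both replicates on its own normalized values, which are on a log2 scale. By this rule 6 members were higher (MYC, NPM1, NOB1, TAF1D, DKC1 and NOLC1), against 5.0% of the 22321 rows of that table. With the replicates crossed (WT 1 with HSF1-pLVX 2 and WT 2 with HSF1-pLVX 1), 10 members passed, NCL, POLR1E, NOP56 and FBL in addition, against 5.16% of rows. The ratios of MYC were 6.39 and 5.74. NCL was just outside the rule with ratios of 1.996 and 2.29, and NOLC1 just inside with 2.10 and 2.36. No member passed the rule downwards, against 6.42% of rows.

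Genes of the same pathways that are not on the list were compared next. The 147 other genes of ribosome biogenesis, in 6 lists written down for this comparison, changed less as a group. Of these, 139 were tested, and 65 were called higher and 21 lower, a share of 46.8% higher. Among all genes tested, 32.7% were called higher and 33.2% lower, and each list count below stands against these shares. Their median log2 fold change was 0.21, against 0.62 for the members and 0.02 for all genes tested. The 6 genes of all the compared lists that the table lists a further time on an alternate sequence (ZNRD1, POLR3E, BDP1, ZNHIT3, AATF and REXO4) had at most 37 counts in any library.

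Other genes of RNA polymerase I (15 tested) were mostly higher, with 9 called higher and 3 lower and a median log2 fold change of 0.49. TCOF1 (treacle, which anchors the polymerase in the nucleolus) was measured at 75.1 and 61.8 CPM in WT and at 240.0 and 234.3 CPM in HSF1-pLVX cells, and POLR1D, a subunit shared with RNA polymerase III, at 56.5 and 56.7 CPM and at 135.3 and 165.7 CPM, with log2 fold changes of 1.79 and 1.41. The subunits POLR2L and POLR2K, shared by all nuclear RNA polymerases, were called lower with log2 fold changes of -0.97 and -0.60. Of the genes of RNA polymerase III tested, 15.8% were called higher, against 32.7% of all genes tested. Among them, POLR3E passed the filter on low counts only through its WT libraries. For this polymerase, which makes the smallest ribosomal RNA, 3 of 19 genes were called higher and 5 lower, with a median log2 fold change of 0.02. GTF3A, the factor that binds that gene, was higher (0.64) and POLR3D lower (-0.50), whereas POLR3GL (0.47, adjusted p = 0.0543, range 0.00216 to 0.354) was not called. POLR3E, with 37 and 12 counts in WT and 9 and 7 in HSF1-pLVX cells, had a log2 fold change of -1.86 that lost its call without WT replicate 1 (adjusted p = 0.212) and without HSF1-pLVX replicate 2 (0.151), with a range of 1.82e-07 to 0.212.

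The factors that assemble snoRNPs (8 tested) had 5 genes called higher and 1 lower, with a median log2 fold change of 0.35. NAF1, which loads H/ACA particles, and PIH1D1, part of the R2TP chaperone complex, had log2 fold changes of 0.83 and 0.81, and RPAP3 of the same complex had -0.23 (adjusted p = 0.0937, range 0.0467 to 0.447, called only without HSF1-pLVX replicate 1). NOP10 was lower, at 92.0 and 90.3 CPM in WT and at 54.9 and 58.4 CPM in HSF1-pLVX cells, with a log2 fold change of -0.69 ± 0.08 (SE, adjusted p = 4.56e-06). NOP10 therefore differed in direction from DKC1, NHP2 and GAR1, the proteins with which it forms the H/ACA core.

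Among 38 other genes of the small subunit, 15 were called higher and 8 lower (median log2 fold change 0.18). The share called higher was 39.5%, against 32.7% of all genes tested. RCL1 (1.19) and the acetyltransferase NAT10 (1.18) had the largest changes upwards. RRP36 was lower by a log2 fold change of -0.85. DDX47 had -1.12, lost without WT replicate 2 (adjusted p = 0.0948) and without HSF1-pLVX replicate 2 (0.115), with a range of 1.66e-07 to 0.115. Among 43 other genes of the large subunit, 25 were called higher and 3 lower (median 0.37), led by NLE1 (1.49) and the helicase DDX55 (1.08), whereas EIF6, which keeps the subunits apart, was lower (-0.45). GTPBP4 had -0.28, lost without HSF1-pLVX replicate 2 (adjusted p = 0.106, range 0.00711 to 0.106).

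Of 16 genes of the RNA exosome and of pre-rRNA trimming, 8 were called higher and 1 lower (median 0.28), with EXOSC5 at 1.43 and EXOSC2 at 1.28. C1D had -0.28 (adjusted p = 0.0704) and was not called. EXOSC4 had -0.27 (adjusted p = 0.0329) and lost its call without WT replicate 1 (0.233), without HSF1-pLVX replicate 1 (0.246) and without HSF1-pLVX replicate 2 (0.08), and also under library size scaling (0.0909), upper quartile scaling (0.132), the stricter filter (0.0503) and DESeq2 (0.113), with a range of 0.0122 to 0.246. Of 10 noncoding RNAs of pre-rRNA processing only SNORD3A and SNORA73B had enough counts to be tested, and neither was called by edgeR, DESeq2 or limma-voom or had an unadjusted p under 0.05 in edgeR. SNORD3A was called lower without WT replicate 1 (adjusted p = 4.74e-05, range 4.74e-05 to 0.618).

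The partners and rivals of MYC in its network did not move one way. Of 11 genes tested, 5 were called higher and 2 lower, with a median log2 fold change of 0.17. The share called higher was 45.5%, against 32.7% of all genes tested. MAX, the obligate partner of MYC (named outside the naming rule, after its values were seen), was measured at 60.3 and 59.2 CPM in WT and at 52.9 and 60.0 CPM in HSF1-pLVX cells, and with a log2 fold change of -0.08 ± 0.09 (SE, adjusted p = 0.423) it was not called. MXD4, which competes with MYC for MAX, was measured at 68.6 and 63.5 CPM in WT and at 222.5 and 224.6 CPM in HSF1-pLVX cells, a log2 fold change of 1.76 ± 0.09 (SE, adjusted p = 6.80e-10). MYCL, a MYC paralog, was lower by a log2 fold change of -2.41, at 5.96 and 5.48 CPM in WT and 0.954 and 1.21 CPM in HSF1-pLVX cells. MLXIP had -0.59, and MLXIPL had 0 and 1 counts in WT and 17 and 14 counts in HSF1-pLVX cells. MLXIPL passed the filter on low counts only through its HSF1-pLVX libraries, so it could only be called higher.

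Of 15 cofactors and regulators of MYC turnover, 11 were called higher and 3 lower, with a median log2 fold change of 0.70. AURKA, a mitotic kinase, and RUVBL2, an ATPase of chromatin and R2TP complexes, had log2 fold changes of 1.09 and 1.08. The ubiquitin ligase HUWE1 was lower (-0.56), and its call was lost without HSF1-pLVX replicate 2 (adjusted p = 0.0902, range 2.91e-08 to 0.0902). Of 24 known MYC targets outside the nucleolus, 18 were called higher and 2 lower, with a median of 0.61. SHMT2, a mitochondrial enzyme of one-carbon metabolism, and HSPD1, a mitochondrial chaperone that is also a heat shock gene, had 1.93 and 1.84. EIF4G1 (-0.59) and EIF4E (-0.30), translation initiation factors, lost their calls without HSF1-pLVX replicate 2 (adjusted p = 0.051, range 1.13e-07 to 0.051, and 0.0991, range 0.00681 to 0.0991).

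Genes known to be repressed by MYC went both ways. CDKN1A (p21, an inhibitor of the cell cycle) was measured at 1180 and 1159 CPM in WT and at 472.3 and 433.5 CPM in HSF1-pLVX cells, a log2 fold change of -1.37 ± 0.10 (SE, adjusted p = 2.78e-08). GADD45A was also lower (-0.78). NDRG1 was higher, at 145.3 and 128.4 CPM in WT and 512.8 and 648.3 CPM in HSF1-pLVX cells, a log2 fold change of 2.08 ± 0.12 (SE, adjusted p = 2.19e-09), and NDRG2 had 1.27. The other 2 genes of this list of 6 had too few counts to be tested.

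**Figure D4:**
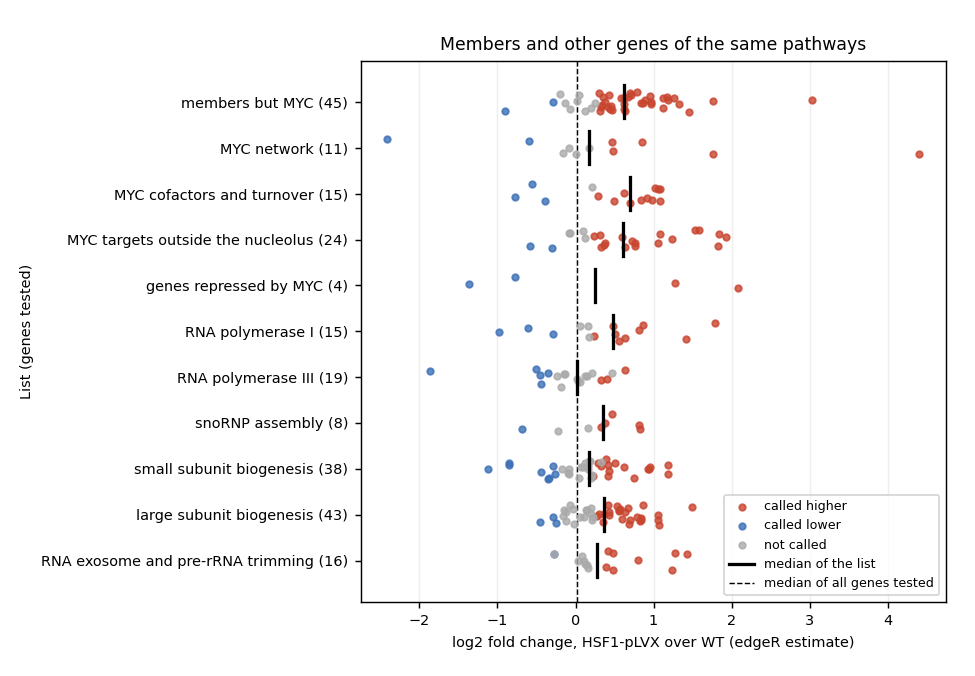
Fitted log2 fold change of HSF1-pLVX over WT cells for the 45 members other than MYC and for the genes of 10 other lists (each point a gene, red called higher, blue called lower, grey not called, with the number of genes tested in brackets). The bar marks each list's median, which is 0.62 for the members, 0.70 for MYC cofactors, 0.61 for MYC targets outside the nucleolus and 0.02 for RNA polymerase III.

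Promoters of the members were searched for the E-box, the site that MYC and MAX bind. Promoter windows of 300 bases, most of them before the start site, were taken from RefSeq (GRCh38.p14) for 40 of the 46 members. The windows of MYC, POLR1E, NOP58, NOLC1, RRP12 and RRS1 were not in the table. The letters CACGTG, which read the same on both strands, were found in 13 of 40 windows (32.5%), against 9.64% of the 10969 windows of tested genes and 7.43% of all 27305 windows. Of the other ribosome biogenesis genes 27.1% of 118 windows held an E-box, and of the MYC targets outside the nucleolus 10 of 20 did.

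Members with a match within 35 bases of the start site include MYBBP1A, FBL, UTP20 and LTV1 (at 27, 6, -10 and 28), which are not shown. The place of the E-box is shown for 8 others with such a match. They include the processome gene with the largest change (NOP14), genes with small changes, and NOL6 and BYSL, which were not called or called lower, and the capitals mark the E-box within 24 bases.
NOP14: gcggcccggCACGTGtcttagggt
WDR43: acggacgaaCACGTGgctgcagcg
UTP18: gcgaggttcCACGTGagcgcctgc
PES1: ttggcagggCACGTGcgggaggaa
RRP9: ttcagctgcCACGTGagttctgcg
NOP2: tccggattgCACGTGgagggccgc
NOL6: atttccgccCACGTGggaagctat
BYSL: ttcagtcccCACGTGcgatccttc

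On GRCh38.p14 these windows are chr4:2963377-2963400 (minus strand) for NOP14, chr2:28894661-28894684 (plus) for WDR43, chr17:51260541-51260564 (plus) for UTP18, chr22:30591883-30591906 (minus) for PES1, chr3:51941895-51941918 (minus) for RRP9, chr12:6568242-6568265 (minus) for NOP2, chr9:33473897-33473920 (minus) for NOL6 and chr6:41921518-41921541 (plus) for BYSL. Counted from the RefSeq start site, the first base of the E-box lies 15 bases after it in NOP14, 3 in WDR43, 4 in UTP18, 13 in PES1, 35 in NOP2, 13 in NOL6 and 28 in BYSL, and 5 bases before it in RRP9. Apart from the E-box itself the flanks differ between the genes. Of the 14 matches in member windows, 10 (71.4%) begin at or after the start site. This was the case for 32.4% of matches of the other ribosome biogenesis genes, 5.88% of those of MYC targets outside the nucleolus and 9.72% of those of all tested genes.

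The members with an E-box did not differ plainly from those without. Of the 13 with a match 10 were called higher and 1 lower, with a median log2 fold change of 0.62 (0.625), and of the 27 without a match 22 were called higher and 1 lower, with a median of 0.46. The heat shock element, the site that HSF1 binds, was searched as 3 inverted repeats of its core (GAANNTTCNNGAA, on both strands). No member window held these letters, against 0.337% of windows of tested genes. At so low a share, a count of 0 in 40 windows does not set the members apart from other genes. These counts describe letters in 1 window per gene, and binding was not measured in these data.

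**Figure D5:**
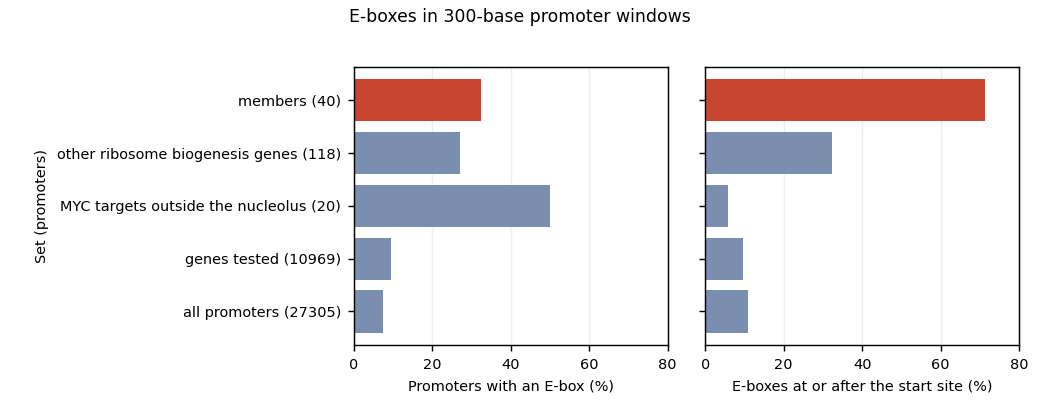
Share of promoter windows that hold an E-box (left, percent) and share of E-boxes that begin at or after the start site (right, percent), for the members (red) and for comparison sets (blue), with the number of windows in brackets. The members are at 32.5% and 71.4%, and all promoters at 7.43% and 11.0%.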

How the data were processed

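RNA-seq data of 4 MCF10A libraries, 2 of WT and 2 of HSF1-pLVX cells, were analysed from the authors' processed files. Libraries were assigned to groups by their titles. The deposited raw counts per gene were made by the authors from paired-end reads aligned to hg38 with HISAT2 2.0.5, processed with SAMtools 1.13 and counted with featureCounts 1.6.5, versions as in the submitters' processing notes. The counts were used as deposited. Whether the counting used strand, and what it did with reads that map to several places, is not given in the sources used here. Reads of a gene and of one that overlaps it on either strand can therefore not be told apart. The authors also deposited log2 values normalized with DESeq2 1.32.0, which equal the blind variance-stabilized counts of DESeq2 and served the ratio rule of the study.

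The test was the quasi-likelihood test of edgeR 4.0.16 (R 4.3.3), without a block, after filterByExpr and TMM normalization, with Benjamini-Hochberg adjustment over all genes tested and a call at an adjusted p of 0.05. FBL, MLXIPL and DCN passed the filter only through their HSF1-pLVX libraries, so they could only be called higher. POLR3E passed it only through its WT libraries, so it could only be called lower. The prior degrees of freedom were 11.94 and the common coefficient of variation was 0.0738. On simulated counts with 200 genes changed 2-fold, 80.5% were recovered and 8.93% of calls were false, over 3 draws. The share of false calls was above the threshold of 0.05. In the libraries themselves 10428 genes were called, so the simulated shares need not hold for these data. TPM was computed from the counts and the exonic lengths of the table.

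The members, the role groups and the lists of other genes were chosen with earlier results of these data known, so no count over a list is independent evidence. All 46 members are named. In each role group and each other list, the 2 genes with the largest and the 2 with the smallest fitted log2 fold change are given in more detail, except for 1 gene that is not reported here. Alternatives were RLE, library size and upper quartile scaling, no filter and a stricter filter (50 counts in 2 libraries), DESeq2 1.42.0, limma-voom (limma 3.58.1), a replicate block, a threshold of 0.01 and each library left out. The counts without FBL and RRN3, and without members that share 10% or more of their exonic length, were added after seeing the data.

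Gene coordinates (hg38) come from the count table.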

Additional observations from a re-analysis of the deposited data

How the results depend on the processing

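Over all members (45 under the stricter filter, which removes FBL), the number called higher was between 29 and 39 in every alternative, the number more than 2-fold higher between 9 and 13, the log2 fold change of MYC between 2.58 and 2.72, and the median of the members between 0.54 and 0.71. Another scaling put the median of all genes between 0.01 (RLE) and 0.10 (upper quartile). The calls downwards were less firm. The 2 members called lower became 1 under library size scaling, upper quartile scaling and DESeq2, and 1 in the member sets without FBL and RRN3 and without shared exonic length (28 of 35 members higher in the latter). They became 0 at an adjusted p of 0.01, and 0 to 2 when a library was left out. Members more than 2-fold lower numbered 0 to 1 when a library was left out (1 being RRN3). Other ribosome biogenesis genes called lower fell from 21 to between 9 and 19 when a library was left out.

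By the study's ratio rule, the 6 members past 2 in both replicates became 10 with crossed pairs and 19 at a ratio of 1.5, where 1 member also passed downwards. UTP3 changed sign under upper quartile scaling (0.019), and UTP3, UTP15 and NOL6 did so when libraries were left out (-0.148 to 0.023, -0.128 to 0.20, -0.031 to 0.138). The cause was not tested.

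With the replicate block, 36 members were called higher, 2 lower and 10 more than 2-fold higher, with MYC at 2.64 and a median of 0.62. Deviations from the group means correlated by 1e-04 between same-numbered libraries, over all genes tested. Whether same-numbered libraries were paired cannot be decided from this value, since a correlation over all genes can miss sharing that touches few of them. The block changed no call of a member, in a fit whose prior degrees of freedom were infinite. Single members gave 539 values under the alternatives, of which 506 kept direction and call, 20 lost the call, 8 gained one and 5 changed sign.

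With 2 libraries per group, each left-out library leaves 1 library assumed to vary like the other group, and small differences such as those of BYSL or UTP20 could not be settled. FBL and RRN3 have too few counts for a firm value.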
